A study of Mus musculus with 9 samples.

Results

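The miRNAs miR-203, miR-205 and miR-31, which are known from barrier epithelia such as the epidermis and the lining of the airways, were followed in extracellular vesicles (EVs) of bronchoalveolar lavage fluid (BALF), the fluid with which the lungs are rinsed. All entries of their hairpins, listed as mir-203, mir-205 and mir-31 in the deposited table, were taken, whichever arm of the hairpin they came from and whichever base they started at, which gave 18 of 1308 entries, 6 for each of the 3 hairpins. The study asked how inhaled ozone (O3) changes the miRNAs carried by airway EVs. Female C57BL/6J mice, 8 to 10 weeks old, breathed filtered air (FA), 1 ppm O3 or 2 ppm O3 in a whole-body chamber for 3 h, and BALF was collected the next day. Small RNA of the EVs was sequenced in 9 pools, 3 per exposure. Each FA pool held BALF of 4 mice and each O3 pool BALF of 3 mice, so that pool size and exposure to O3 cannot be told apart, and p-values measure the spread between pools and not between single mice.

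An miRNA guides the silencing machinery to mRNAs that pair with its seed, bases 2 to 8 from its 5′ end. In stratified epithelia miR-203 is known to accompany differentiation and to repress p63, a transcription factor of epithelial stem cells. miR-205 is abundant in basal epithelial cells and, with the miR-200 family, represses the transcription factors ZEB1 and ZEB2, which keeps cells epithelial. miR-31 is known from keratinocytes, where it promotes proliferation during wound repair.

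The mature sequences show what each entry can pair with, and they are given 5′ to 3′ with the seed in capitals, from RefSeq (GRCm38.p6). The suffix +1 marks a 5′ end shifted by 1 base from the annotated start. The labels and methods do not define its sign, and the +1 sequences assume a shift downstream, the usual reading.
miR-203-3p: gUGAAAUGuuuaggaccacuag
miR-203-3p +1: uGAAAUGUuuaggaccacuag
miR-205-5p: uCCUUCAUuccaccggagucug
miR-205-3p: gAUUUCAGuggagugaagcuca
miR-31-5p: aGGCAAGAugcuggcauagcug
miR-31-5p +1: gGCAAGAUgcuggcauagcug
No 2 of these 6 seeds are alike, and no other mature mouse miRNA in the RefSeq table carries any of them as its seed. In mm9, the build of the deposited data, the miR-203 hairpin lies at chr12:113369091-113369166 on the plus strand, outside annotated genes, with the asparaginase gene Aspg 3307 bases away. The miR-205 hairpin lies at chr1:195333657-195333724 on the minus strand, inside an exon of a long noncoding RNA of the same strand. The miR-31 hairpin lies at chr4:88556461-88556566 on the minus strand, outside annotated genes, and the nearest protein-coding gene is the interferon gene Ifne, 30356 bases away.

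Levels were given as RPMMM, in which the reads mapped to miRNAs are scaled to the same total (RPM) in each pool. In FA the summed entries of miR-203 averaged 1747 ± 347 RPMMM (SD, n = 3 pools), those of miR-205 averaged 1669 ± 194 RPMMM and those of miR-31 averaged 1043 ± 106 RPMMM. The hairpins ranked 73, 83 and 95 of 299 by their mean over all pools. Together they made up between 0.395% and 0.482% of the miRNA reads in FA, between 0.268% and 0.382% after 1 ppm O3 and between 0.188% and 0.255% after 2 ppm O3. miR-203 came almost wholly from its 3p arm (99.8%), whereas miR-31 came from its 5p arm (98.7%) and miR-205 had a measurable minor arm, with 92.7% from 5p and 7.28% from 3p. Of the 18 entries, 6 had a mean above 50 RPMMM and were tested, 2 per hairpin, within one limma fit over all 461 entries of that level, and an entry passed at a Benjamini-Hochberg adjusted p below 0.05.

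An estimated 535538 to 773275 miRNA reads lay behind the FA pools, 555115 to 860955 behind the 1 ppm pools and 281539 to 300914 behind the 2 ppm pools. The smallest value above 0 was at most 18.9 RPMMM in FA and at 1 ppm, but 34.3 to 37.3 RPMMM at 2 ppm. It was taken to be about 10 reads, since the search for the RPMMM of 1 read was limited to steps near that. The read estimates rest on this assumption. A single miRNA, miR-2137, took 0.0784% to 0.641% of the total in FA, 3.23% to 5.40% at 1 ppm and 18.7% to 20.3% at 2 ppm, and a larger share for one miRNA leaves a smaller share for the rest. Over all 461 tested entries the log2 fold change had a median of -0.08 at 1 ppm and -0.83 at 2 ppm, both against FA, and -0.69 for 2 ppm against 1 ppm. With both miR-2137 and the hairpins not found in RefSeq left out of the total, the medians were -0.07, -0.07 and -0.10 over 438 entries. The part of miR-2137 alone in these medians was not tested. The comparisons with FA use the same FA pools. In EVs of a whole fluid, fewer vesicles of one source and less of an miRNA per vesicle cannot be told apart.

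Against FA, 1 of the 6 tested entries passed at 1 ppm, miR-205-5p, which was lower, where 6.07% of all tested entries passed as lower. At 2 ppm, 5 of the 6 passed, all lower, where 38% of all entries did so. Between 2 ppm and 1 ppm, 3 of the 6 passed, all lower, where 32.1% of all entries did so. None of the 6 passed as higher in any of these comparisons. The median log2 fold change of the 6 entries was -0.46 at 1 ppm and -1.14 at 2 ppm against FA, beside -0.08 and -0.83 for all entries. Lowest at 2 ppm were miR-31-5p +1 (-4.70) and miR-205-3p (-2.16), both with zeros there. Relative to the all-entry median at 2 ppm, miR-203-3p, its +1 form, miR-205-5p and miR-31-5p stood at -0.46, -0.10, -0.001 and -0.17. The 6 entries come from 3 hairpins. With entries summed, each of the 3 passed as lower at 2 ppm, where 59.4% of hairpins did so.

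**Figure D1:**
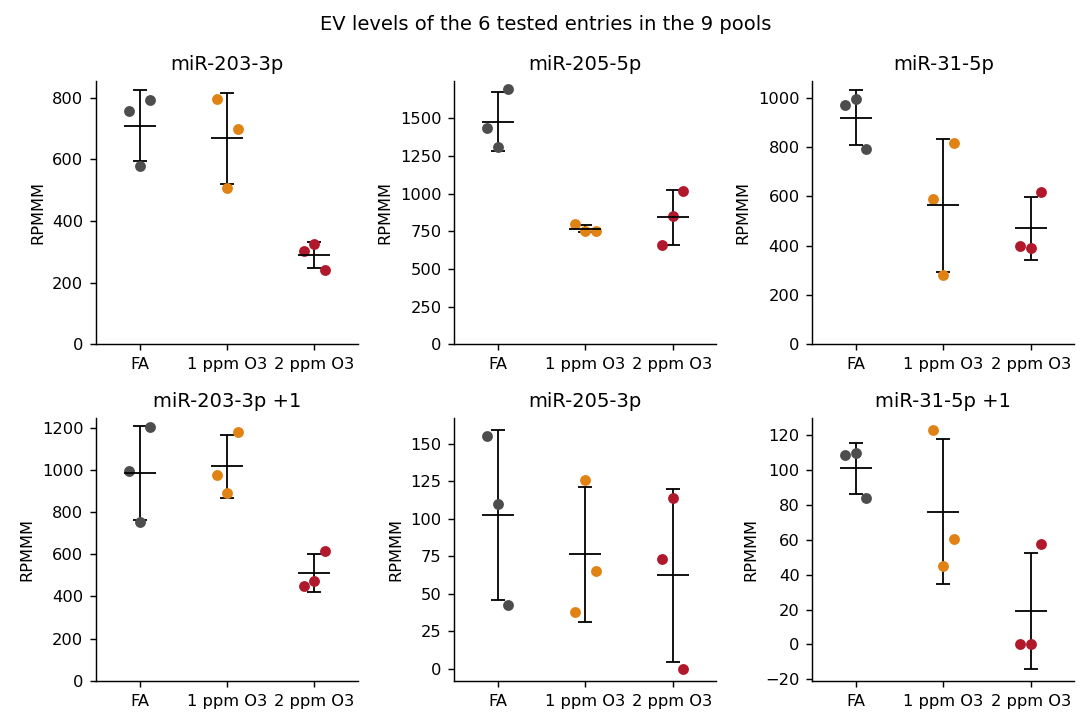
RPMMM of the 6 tested entries of miR-203, miR-205 and miR-31 in each of the 9 pools, by exposure, with points for pools, horizontal bars for means and error bars for the SD over 3 pools. miR-205-5p lay below every FA pool at both concentrations, whereas both starts of miR-203-3p overlapped with FA at 1 ppm and lay below every FA pool at 2 ppm.

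miR-205-5p was lower than in FA after either concentration of O3. Its level was 1433, 1307 and 1696 RPMMM in the FA pools, 795, 751 and 754 RPMMM in the 1 ppm pools and 658, 850 and 1017 RPMMM in the 2 ppm pools. Every O3 pool lay below every FA pool, while the O3 groups overlapped each other and the 1 ppm pools lay close together. Not overlapping and lower than FA at 1 ppm were 18.4% of all tested entries, and 48.2% at 2 ppm. At 1 ppm miR-205-5p fell by 0.94 on the log2 scale (SE 0.185, 95% interval -1.35 to -0.52, adjusted p = 0.00652 from limma), a 1.92-fold difference and so short of the 2-fold minimum for a differentially expressed (DE) entry. At 2 ppm its log2 fold change was -0.83 (SE 0.185, adjusted p = 0.0043 from limma). Between 2 ppm and 1 ppm it was 0.11, with a 95% interval from -0.30 to 0.53 (adjusted p = 0.615 from limma).

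The same 2 ppm value reads differently beside the other miRNAs. Set against the median entry, miR-205-5p stood at -0.85 at 1 ppm, and 14.3% of entries had a lower fold change there. At 2 ppm it stood at 0.00, in the middle of all entries. In addition, 3 other scalings of the pools were tried, of which the one to the summed miR-200 family was chosen after the data were seen. At 1 ppm miR-205-5p passed as lower under each, with a log2 fold change of -0.85 under median-of-ratios scaling (adjusted p = 0.00467, where 3.93% of entries passed as lower). It was -0.83 when miR-2137 and the hairpins not found in RefSeq were left out of the total (adjusted p = 0.0216, against 2.28%), and -0.61 when scaled to the miR-200 family (adjusted p = 0.0273, against 2.38%). At 2 ppm the same scalings gave -0.13 (adjusted p = 0.571), 0.034 (adjusted p = 0.916) and 0.44 (adjusted p = 0.0616), so that neither the call nor, under the last 2, the direction was kept. Scaling to the miR-200 family moved the median entry too, to 0.25 at 1 ppm and 0.50 at 2 ppm against FA. For 2 ppm against 1 ppm that median was 0.35. The 0.44 of miR-205-5p thus lay below the median entry. Between 2 ppm and 1 ppm the 3 scalings gave 0.73, 0.86 and 1.05, with miR-205-5p higher at 2 ppm (adjusted p = 0.00806, 0.00417 and 0.00125 from limma, where 18.1%, 12.1% and 23.1% of entries passed as higher).

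miR-205-3p, the minor arm, was counted from an estimated 120 reads at most. Its level was 156, 110 and 43.0 RPMMM in FA, 38.3, 126 and 65.0 RPMMM at 1 ppm and 73.1, 114 and 0 RPMMM at 2 ppm. The 3 groups overlapped and the entry passed in no comparison (adjusted p = 0.935, 0.263 and 0.387 from limma for 1 ppm against FA, 2 ppm against FA and 2 ppm against 1 ppm). Summed over both arms and all starts, miR-205 differed from FA by -0.90 at 1 ppm (adjusted p = 0.00813 from limma over 192 hairpins) and by -0.89 at 2 ppm (adjusted p = 0.000896). Of all hairpins, 8.33% passed as lower at 1 ppm and 59.4% at 2 ppm.

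miR-203 did not differ from FA beyond the spread of the pools at 1 ppm and was lower at 2 ppm. The annotated form, miR-203-3p, was at 756, 577 and 794 RPMMM in FA, 796, 507 and 699 RPMMM at 1 ppm and 304, 324 and 242 RPMMM at 2 ppm. The 2 ppm pools lay below all others, and the 1 ppm pools spanned the FA range. Not overlapping and lower at 2 ppm than at 1 ppm were 37.5% of all tested entries. At 2 ppm it fell by 1.29 on the log2 scale against FA (SE 0.237, adjusted p = 0.00136 from limma) and by 1.19 against 1 ppm (SE 0.237, adjusted p = 0.00314 from limma). At 1 ppm the log2 fold change was -0.10, with a 95% interval from -0.63 to 0.43 (adjusted p = 0.862 from limma). The fold change at 2 ppm, 2.44, was past the 2-fold minimum, and miR-203-3p was DE, as were 29.3% of all entries in that direction. It was also DE between 2 ppm and 1 ppm (2.28-fold), as were 22.3% of entries in that direction.

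The shifted form, miR-203-3p +1, was the more abundant. It was at 996, 754 and 1201 RPMMM in FA, 978, 892 and 1181 RPMMM at 1 ppm and 449, 474 and 616 RPMMM at 2 ppm. As for the annotated form, the 2 ppm pools lay below all others. Its log2 fold change was -0.93 at 2 ppm against FA (SE 0.218, adjusted p = 0.00576 from limma), a 1.90-fold difference, and -0.99 against 1 ppm (adjusted p = 0.00557 from limma). At 1 ppm it was 0.06, with a 95% interval from -0.43 to 0.55 (adjusted p = 0.919 from limma).

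The lower levels of miR-203 at 2 ppm depended on the total to which the pools were scaled. Set against the median entry at 2 ppm, miR-203-3p stood at -0.46 and its +1 form at -0.10. Under median-of-ratios scaling miR-203-3p was at -0.59 against FA (adjusted p = 0.0864 from limma), and without miR-2137 and the unmatched hairpins in the total at -0.43 (adjusted p = 0.204). Scaled to the miR-200 family it was at -0.024 (adjusted p = 0.942), and the +1 form was at 0.34 (adjusted p = 0.198), both below the median entry at 0.50. Neither form passed at 2 ppm, against FA or against 1 ppm, under any of these 3 scalings.

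**Figure D2:**
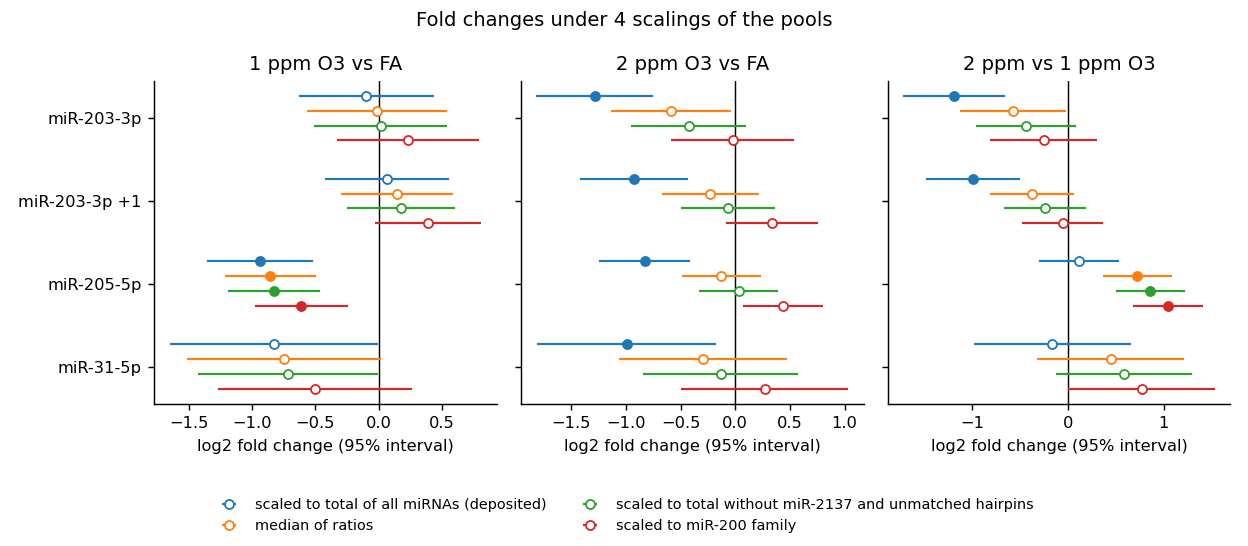
Log2 fold changes with 95% intervals of miR-203-3p, its +1 form, miR-205-5p and miR-31-5p in 3 comparisons, under the deposited total and 3 other scalings of the pools, with filled points for an adjusted p below 0.05. At 1 ppm against FA the point of miR-205-5p was filled and below 0 under all 4 scalings, whereas at 2 ppm against FA no point of these entries was filled except under the deposited total.

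Most miR-203-3p in these EVs did not start at its annotated 5′ end. The +1 form exceeded the annotated form in all 9 pools, by 1.38 ± 0.116 times in FA, 1.56 ± 0.288 times at 1 ppm and 1.83 ± 0.622 times at 2 ppm (SD, n = 3 pools). If +1 is a downstream shift, as in the sequences above, its seed reads GAAAUGU in place of UGAAAUG. Of 236 hairpin arms whose annotated entry averaged above 50 RPMMM, 13 (5.51%) had a shifted entry above the annotated one. Arms whose annotated entry was lower or not listed were not counted. Shifted entries made up 59.2% ± 1.69 of the miR-203 hairpin in FA, 61.9% ± 4.65 at 1 ppm and 63.7% ± 7.09 at 2 ppm. That share ranked 10 of 152 hairpins, whose median was 5.84%. The highest share, 71.8%, was in 2 ppm pool 3, and the other 8 pools held 56.5% to 65.1%. When pools of unequal exposure were paired, 18 of the 27 pairs had the larger share at the higher concentration (exact permutation test, two-sided, p = 0.388, adjusted p = 0.702), and the shares overlapped between exposures.

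**Figure D3:**
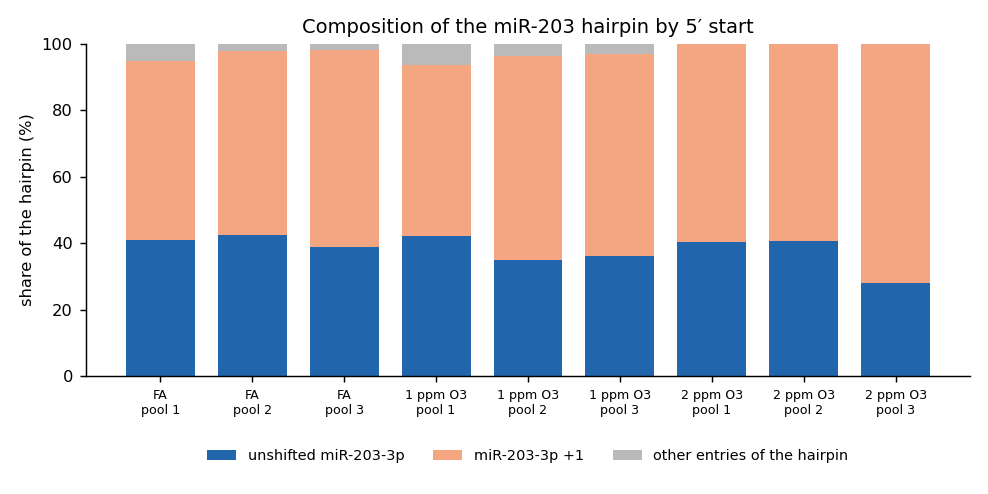
Share of the miR-203 hairpin (%) taken by the annotated miR-203-3p, by its +1 form and by all other entries of the hairpin, as stacked bars for each of the 9 pools. The +1 form held between 51.7% and 71.8% of the hairpin and was the larger part in every pool.

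In the other hairpins the annotated start prevailed. Shifted entries of miR-205 made up 5.17% ± 1.58 of the hairpin in FA, 5.51% ± 3.96 at 1 ppm and 0 at 2 ppm. Those of miR-31 made up 12.1% ± 2.03 in FA, 15.6% ± 1.62 at 1 ppm and 2.84% ± 4.92 at 2 ppm. The 2 ppm shares rest on pools whose smallest listed value above 0 was 34.3 to 37.3 RPMMM. Neither share passed a trend across exposures (exact permutation test, two-sided, adjusted p = 0.271 for miR-205 and 0.554 for miR-31). Of the 152 hairpins tested in this way 0 passed, and 21 had an unadjusted p below 0.05 in the same exact test.

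miR-31-5p was lower at 2 ppm, with a larger standard error than miR-203-3p and miR-205-5p, and its pools spread most at 1 ppm. Its level was 969, 996 and 792 RPMMM in FA, 589, 282 and 817 RPMMM at 1 ppm and 399, 390 and 619 RPMMM at 2 ppm. The 2 ppm pools lay below all FA pools, while 1 ppm pool 3 lay inside the FA range and 1 ppm pool 2 was the lowest of all 9 pools. The log2 fold change at 2 ppm against FA was -0.99 (SE 0.365, adjusted p = 0.0440 from limma), a 1.99-fold difference. The call was lost without FA replicate 1, 2 or 3, 1 ppm replicate 1, or 2 ppm replicate 1 or 2, with an adjusted p of up to 0.117 from limma and a log2 fold change of -1.21 to -0.88 over all 9 pools left out in turn. At 1 ppm it was -0.83 (SE 0.365), which had an unadjusted p of 0.0482 and missed the threshold after adjustment (adjusted p = 0.178 from limma). Without 1 ppm replicate 2 that value was -0.40. Between 2 ppm and 1 ppm the log2 fold change was -0.16, with a 95% interval from -0.99 to 0.66 (adjusted p = 0.708 from limma).

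Set against the median entry, miR-31-5p stood at -0.74 at 1 ppm and -0.17 at 2 ppm. Under the other scalings its log2 fold change at 2 ppm was -0.30, -0.13 and, relative to the miR-200 family, 0.27, where the median entry was at 0.50. miR-31-5p did not pass under any of them. Its +1 form was at 109, 110 and 84.0 RPMMM in FA, 123, 45.0 and 60.4 RPMMM at 1 ppm and 0, 0 and 57.6 RPMMM at 2 ppm. Pools 1 and 2 at 2 ppm, listed at 0, allow values of up to about 34.3 and 35.4 RPMMM, the smallest values above 0 in these pools. The entry passed at 2 ppm against FA (adjusted p = 0.0249 from limma), but its fold change depends on how 0 is treated. With all values under 40 RPMMM set to 40, the log2 fold change was -1.15 (adjusted p = 0.0363) against FA and -0.62 (adjusted p = 0.247) against 1 ppm, where it had passed with an adjusted p of 0.0479. With each pool left out in turn, its call against FA was lost in 5 of 9 fits, those without FA replicate 1, 2 or 3 or 2 ppm replicate 1 or 2, at log2 fold changes of -4.83 to -3.72. Its call against 1 ppm was lost in 8 of 9, all but the one without 2 ppm replicate 3, at -4.49 to -3.20. Summed over all its entries, miR-31 was at -0.76 at 1 ppm (adjusted p = 0.210 from limma) and -1.14 at 2 ppm (adjusted p = 0.0216), both against FA.

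The 12 entries that were not tested were shifted forms and the minor arms of miR-203 and miR-31. Where listed above 0 they lay between 15.5 and 87.8 RPMMM. All 12 were at 0 in all 2 ppm pools, 6 were above 0 in 1 pool only, and none in more than 6 pools. The highest of them was miR-205-5p +1, at 51.9, 49.1 and 87.8 RPMMM in FA and 0, 27.02 and 52.3 RPMMM at 1 ppm. miR-203-3p +2 was above 0 in all 6 pools of FA and 1 ppm, between 29.7 and 63.7 RPMMM. Values of this size could partly have been seen at the depth of the 2 ppm pools, whose minimum was 34.3 to 37.3 RPMMM, and no fold change is given for them.

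As a response ordered by concentration, none of the 6 tested entries passed. Among the 27 pairings of pools of unequal exposure, 23 had the lower level after more O3 for miR-203-3p and for its +1 form, 22 for miR-31-5p and 21 for miR-205-5p. The adjusted p-values of the 6 entries lay between 0.0965 and 0.582 (exact permutation test, two-sided). In the same test 28.6% of all entries passed, 16.3% as lower with more O3.

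Ratios inside a pool do not depend on the total, and that of miR-205 to miR-203 was lowest in the 1 ppm pools. The ratio of summed miR-205 to summed miR-203 was 0.897, 1.09 and 0.919 in FA, 0.456, 0.623 and 0.470 at 1 ppm and 0.971, 1.21 and 1.19 at 2 ppm. All 1 ppm pools lay below all FA and all 2 ppm pools. The mean log2 ratio differed by -0.92 between 1 ppm and FA and by 1.13 between 2 ppm and 1 ppm (exact permutation test, two-sided, p = 0.1 each, the smallest that 3 pools against 3 allow, and 0.36 after adjustment over 9 such tests). Between 2 ppm and FA it differed by 0.21 (exact permutation test, p = 0.2). The ratio of miR-31 to miR-203 was 0.598, 0.812 and 0.453 in FA, 0.386, 0.225 and 0.502 at 1 ppm and 0.530, 0.489 and 0.789 at 2 ppm, and its groups overlapped. These ratios between the 3 miRNAs were chosen after the data were seen, and they restate the levels given above. How often other pairs of hairpins do not overlap in this way was not tested.

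The miR-200 family, the epithelial miRNAs that share targets with miR-205, gave a second reference. Its 5 hairpins summed to 64849 to 69404 RPMMM in FA, 51325 to 56129 at 1 ppm and 26265 to 30243 at 2 ppm. Of its 19 tested entries 3 passed as lower at 1 ppm and 12 at 2 ppm against FA, where 6.07% and 38% of all entries did so, and none as higher. Its most abundant entry, miR-200b-3p, was at -0.38 (adjusted p = 0.0221 from limma) and -1.39 (adjusted p = 2.14e-06). Relative to this family, miR-205 was at 0.0229 to 0.0269 in FA, 0.0162 to 0.0175 at 1 ppm and 0.0278 to 0.0360 at 2 ppm, and no group overlapped another. Not overlapping in the same direction were 11.8% of 187 hairpins for 1 ppm against FA, 39.6% for 2 ppm against FA and 31.6% for 2 ppm against 1 ppm. Since the 1 ppm pools were the lowest and the 2 ppm pools the highest, these values were not ordered by concentration (18 of 27 pairs rising, exact permutation test, two-sided, p = 0.388, adjusted p = 0.571). The ratio of miR-203 was 0.0210 to 0.0293 in FA, 0.0281 to 0.0369 at 1 ppm and 0.0284 to 0.0298 at 2 ppm (exact permutation test, two-sided, adjusted p = 0.684), and that of miR-31 gave an adjusted p of 0.801. Of 187 hairpins outside the family, 21.4% passed this test, mostly rising (19.8%).

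**Figure D4:**
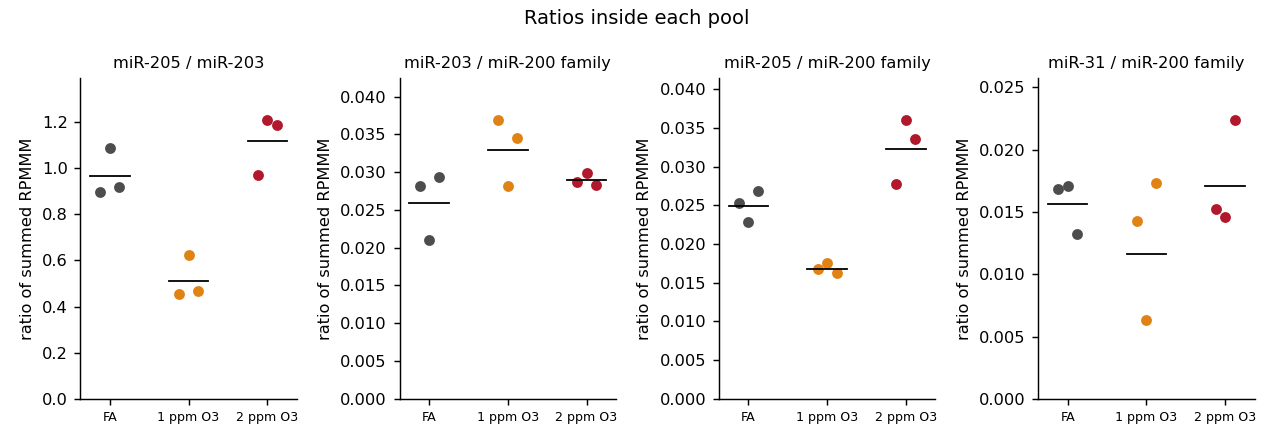
Ratio of summed miR-205 to summed miR-203 RPMMM and ratios of miR-203, miR-205 and miR-31 to the summed miR-200 family, in each of the 9 pools by exposure, with a line at the geometric mean of each group. The 1 ppm pools lay lowest in both ratios with miR-205 as numerator, and the groups of miR-31 relative to the family overlapped.

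Other epithelial lists behaved differently from each other. The ciliated-cell miRNAs, miR-34b, miR-34c, miR-449a and miR-449c, summed to 11050 to 16603 RPMMM in FA, 5984 to 10677 at 1 ppm and 11857 to 13778 at 2 ppm. The sum, made up mostly of miR-34b and miR-34c, was lowest at 1 ppm. miR-449a was instead lowest at 2 ppm, with 416 to 517 RPMMM in FA, 133 to 166 at 1 ppm and 66.5 to 153 at 2 ppm, and miR-449c was at 0 in 1 pool at 1 ppm and in 2 pools at 2 ppm. Of the 10 tested entries 2 passed as lower at 1 ppm and 2 at 2 ppm against FA, where 6.07% and 38% of all entries did so. Between 2 ppm and 1 ppm 3 passed as higher, where 12.4% of all entries did so. miR-34b-3p was at -0.86 at 1 ppm against FA (adjusted p = 0.0321 from limma) and at 1.06 between 2 ppm and 1 ppm (adjusted p = 0.00549). The miR-183 cluster, of sensory and secretory epithelium, summed to 7711 to 9843 RPMMM in FA, 8362 to 8947 at 1 ppm and 4826 to 5303 at 2 ppm. None of its 5 tested entries passed at 1 ppm against FA. At 2 ppm 3 passed as lower, among them miR-182-5p at -0.70 (adjusted p = 0.000649 from limma), where 38% of all entries passed as lower.

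Of the markers of other cells, some red-cell miRNAs were also lower at 1 ppm. The red-cell miRNAs miR-451, miR-486 and miR-144 summed to 884 to 1822 RPMMM in FA, 150 to 343 at 1 ppm and 158 to 948 at 2 ppm. Of their 2 tested entries 1 passed as lower at 1 ppm and 0 at 2 ppm against FA, where 6.07% and 38% of all entries did so. miR-451 and miR-486 were above 0 in all 9 pools, and miR-144 was at 0 in all O3 pools and in 1 FA pool. Striated-muscle miRNAs (miR-1a, miR-133a and miR-206) summed to 235 to 6029 RPMMM in FA, 146 to 217 at 1 ppm and 0 to 179 at 2 ppm. miR-1a and miR-133a are each listed under 2 hairpins with the same values in every pool, and these sums count both listings. Of the tested entries, 4 of 4 passed as lower at 2 ppm, where 38% of all entries did so, and 0 at 1 ppm. Because of the repeated listings they are not 4 separate miRNAs. miR-206 was at 0 in all O3 pools and in 1 FA pool, and at 36.2 and 57.9 RPMMM in the other FA pools. The part of these cells in the levels of miR-205 was not tested.

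The entries whose levels followed each miRNA most closely over the 9 pools were sought among 232 unshifted entries of other hairpins by the Pearson correlation of log2(RPMMM + 1). The pools share exposures and totals, so these are descriptions. For miR-205-5p they were miR-451 (r = 0.916), miR-127-3p (0.915) and let-7b-3p (0.888). After median-of-ratios scaling the values were 0.924, 0.892 and 0.753. miR-451 averaged 598, 96.0 and 255 RPMMM in FA, at 1 ppm and at 2 ppm, and miR-127-3p averaged 518, 37.9 and 123 RPMMM. For miR-203-3p +1 they were miR-27b-3p (r = 0.964), miR-532-5p (0.955) and miR-103-2-3p (0.952), and after median-of-ratios scaling 0.270, 0.795 and 0.759. For miR-31-5p they were miR-449a-3p (r = 0.942), miR-10b-5p (0.892) and miR-15b-5p (0.887), and after that scaling 0.754, 0.685 and 0.834. Among themselves, as pairs that were not selected for their correlation, the 3 miRNAs had r = 0.698 for miR-205-5p and miR-31-5p, 0.513 for miR-203-3p +1 and miR-31-5p and 0.415 for miR-203-3p +1 and miR-205-5p.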

How the data were processed

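Small RNA of BALF EVs was sequenced from 9 pools of mice. After adapter trimming and alignment to mm9 in miRquant 2.0, the authors deposited RPMMM for miRNAs and their isomiRs, which is RPM of the reads mapped to miRNAs. Reads per pool were estimated from the steps between low values, of which 71.1% to 87.8% were whole within 0.1 read, so no count test was run. Precision is therefore given as the spread over pools.

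From the deposited values, log2(RPMMM + 1) was fitted in one model over the 9 pools with limma 3.58.1 in R 4.3.3, for 461 entries averaging above 50 RPMMM. Variances followed a mean trend, and Benjamini-Hochberg adjustment ran over all 461. DE also required a 2-fold change, the thresholds of the study, whose methods name no test for these data. Fold changes are on the log2(RPMMM + 1) scale, which understates those of low entries without zeros and can overstate those of entries listed at 0 in some pools. Trends and ratios were compared with exact permutation tests, two-sided, over 1680 arrangements of the pools for a trend (smallest p 0.00119). The limma fit and the trend test were checked on simulated data, in which limma did not call all of the changed entries. The exact test of 3 pools against 3 was not checked in this way. Pools of one exposure had a Pearson r of 0.800 to 0.904 across entries, and no pair was a duplicate. Hairpin names were matched to RefSeq for 291 of 299 hairpins. Hairpin positions are from the GENCODE annotation of mm9, and the hairpin sequences there equalled those of RefSeq. Python 3.11.15, numpy 2.4.6, pandas 2.3.3, scipy 1.17.1 and matplotlib 3.10.9 were used.

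The miRNAs named in the text are all entries of the 3 hairpins, the 3 unshifted entries most correlated with the most abundant entry of each, the most abundant entries of the epithelial lists, and miR-2137. Members, lists and tests were chosen with earlier results of these data known, and entries of the red-cell and muscle lists were named after their values were seen. Alternatives were tried for the pseudocount, a floor, the filter, the scaling, hairpin sums, the variance model, the pools in the model and each pool left out. Other small RNAs, mRNA and particle data were not analysed here.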

Additional observations from a re-analysis of the deposited data

How the results depend on the processing

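Of 196 values recomputed under other settings 152 kept their side of the threshold, and their direction where they had passed, or, for counts, stayed within 1.5 times. Values that had not passed were counted as kept even where their direction changed. An example is miR-31-5p between 2 ppm and 1 ppm, at -0.16 under the deposited total and 0.45 under median-of-ratios scaling. The fall of miR-205-5p at 1 ppm passed under all 8 planned settings, 1 of which took the summed miR-205 hairpin in place of the entry, and with each of the 9 pools left out. Under median-of-ratios scaling the log2 fold changes at 2 ppm against FA were -0.59 (miR-203-3p), -0.23 (its +1 form), -0.13 (miR-205-5p), -0.30 (miR-31-5p) and -4.35 (its +1 form), none passing. Against 1 ppm they were -0.58 and -0.38 for the miR-203 forms and -3.91 for miR-31-5p +1, none passing, and 0.73 for miR-205-5p, which passed. With miR-2137 and the unmatched hairpins left out of the total they were -0.43, -0.066, 0.034 (reversed), -0.13 and -4.46 against FA, and -0.44, -0.24, -4.05 and, passing, 0.86 against 1 ppm, in the same orders. Scaled to the miR-200 family, a setting added after the data were seen, they were -0.024, 0.34, 0.44, 0.27 (the last 3 reversed) and -3.98 against FA, and -0.25, -0.055, -3.78 and, passing, 1.05 against 1 ppm. The median entry then stood at 0.50 against FA, above all 3 reversed values, and at 0.35 against 1 ppm. These scalings differ from the deposited one in what they divide by. miR-31-5p at 2 ppm, unchanged at -0.99, missed the threshold with no filter on low values and without the variance trend. miR-31-5p +1 missed it with only the 6 pools compared (-4.70 against FA, -4.18 against 1 ppm), and against 1 ppm also with no filter, without the trend (both -4.18) and with a floor of 40 RPMMM (-0.62). The cause was not tested.

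DE entries numbered 61 (48 higher, 13 lower) at 1 ppm, 201 (66 higher, 135 lower) at 2 ppm and 155 (52 higher, 103 lower) between 2 ppm and 1 ppm. With median-of-ratios scaling they numbered 121 (87 higher, 34 lower) at 2 ppm and 82 (75 higher, 7 lower) between concentrations. Without miR-2137 and the unmatched hairpins in the total they numbered 9 (1 higher, 8 lower), 69 (43 higher, 26 lower) and 50 (42 higher, 8 lower) in the 3 comparisons. Scaled to the miR-200 family they numbered 133 (123 higher, 10 lower) at 2 ppm and 97 (94 higher, 3 lower) between concentrations. With 192 hairpin sums in place of entries, and so fewer tests, they numbered 11, 96 and 69. With each pool left out in turn they ranged from 102 to 146 between concentrations, lowest without 1 ppm replicate 3. The log2 fold change of miR-31-5p at 2 ppm then ranged from -1.21 to -0.88, and that of its +1 form from -6.66 to -3.72 against FA and from -6.14 to -3.20 against 1 ppm, passing or not by the pool left out. The number of rising minus falling pairs of miR-203-3p, its +1 form and miR-31-5p +1 ranged from -19 to -13 and passed once for each, without 1 ppm replicate 1 for miR-203-3p and miR-31-5p +1 and without FA replicate 2 for miR-203-3p +1. No paired analysis was possible because the labels give the pools no replicate numbers. The depth of the 2 ppm pools limits values under about 37.3 RPMMM. The 12 untested entries average less than that over all 9 pools, with their zeros at 2 ppm included. In FA, however, miR-205-5p +1 averaged 62.9 RPMMM and miR-203-3p +2 averaged 44.2 RPMMM, which is above that limit.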

Other observations

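Leukocyte miRNAs (miR-142, miR-223, miR-150, miR-342, miR-155 and miR-146a) summed to 3685 to 4738 RPMMM in FA, 3672 to 4465 at 1 ppm and 2430 to 3340 at 2 ppm. None of their 9 tested entries passed at 1 ppm, and 3 passed as lower at 2 ppm against FA (limma), where 38% of all entries did so. The endothelial miR-126 moved the other way, from 112 to 314 RPMMM in FA to 445 to 938 at 1 ppm and 764 to 912 at 2 ppm. Of its 3 tested entries 1 passed as higher at 1 ppm and 3 at 2 ppm against FA, where 11.1% and 15.4% of all entries did so. The smooth-muscle miR-143 and miR-145 summed to 5204 to 11943 RPMMM in FA, 6354 to 9320 at 1 ppm and 5659 to 6034 at 2 ppm, and none of their 5 tested entries passed against FA.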
